A study of Mus musculus with 12 samples.

Results

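CD40 ligand (CD40L), its receptor CD40, the costimulatory ligands and the BAFF axis were followed as 8 named genes of the 55536 in the table: *Cd40lg*, *Cd40*, *Cd80*, *Cd86*, *Cd83*, *Tnfsf13b* (BAFF), *Tnfrsf13b* (TACI) and *Tnfrsf13c* (BAFF receptor). The genes were picked by name for these roles, with no threshold on their values but with earlier results of these data known. Megakaryocytes (MKs), the platelet-forming cells, came from BM and spleen of C57BL/6 mice with the Pf4-TdTomato label, in which Cre recombinase under the *Pf4* promoter switches on a red fluorescent protein. Each tissue was taken 5 days after saline or after sepsis induced by cecal slurry, which gives 4 groups of 3 independent replicates. Every library was a pool of 300 cells positive for CD45, CD41, CD42b and TdTomato and negative for a lineage panel (NK1.1, CD3, CD11b, F4/80 and B220) and CD138. A pooled library cannot tell fewer cells of a type from less RNA per cell.

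CD40L is a TNF family protein of activated T cells that platelets also store and release. It binds CD40 on B cells, DCs and macrophages, and signaling through CD40 raises CD80 and CD86, which engage CD28 on T cells. BAFF is a soluble TNF family cytokine made mainly by myeloid and stromal cells. It keeps mature B cells alive through the BAFF receptor, and TACI, which also binds APRIL, acts in B cells and plasma cells.

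The total count per library was between 7756762 and 27386184. Levels are given as CPM, which are read counts scaled to library size with TMM factors, and the limit that a count of 0 allows (3 counts) was 0.104 to 0.402 CPM depending on the library, for counting error only. Of the 14 MK markers, 11 to 14 were over this limit in every library, but their summed level was 11717 to 47358 CPM in BM and 1219 to 3502 CPM in spleen. The 12 B cell markers summed to 130 to 1024 CPM in BM and 16698 to 51567 CPM in spleen, although cells positive for B220 were excluded in the sort. Spleen sepsis replicate 3 stood apart from the other spleen sepsis libraries: chi-square over its degrees of freedom was 410 and 644 against them, compared with 225 or less in every other pair of replicates. The tissues were compared first as the average over treatments, which rests on 6 against 6 libraries.

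Splenic MK libraries held more mRNA for CD40, CD86, CD83 and both BAFF-binding receptors than BM MK libraries, with log2 fold changes of BM over spleen from -2.41 to -4.95, and no dependence of the difference on sepsis was detected. *Tnfsf13b*, which encodes the BAFF ligand itself, was not called and had a positive value. *Cd40lg* was near 0 in most libraries of both tissues. With edgeR's quasi-likelihood test and Benjamini-Hochberg adjustment over 20263 genes, 5 of the 7 members that passed the expression filter were called lower in BM than in spleen, and 0 higher. Over all genes tested, 4.75% were called in this comparison, 2.68% lower in BM. The median log2 fold change (BM over spleen) of the 7 members was -4.03, compared with -0.13 for all genes tested. Since the members were chosen with earlier results known, this contrast is a description and not a test of the set. *Cd40lg* was the member that did not pass the filter.

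**Figure D1:**
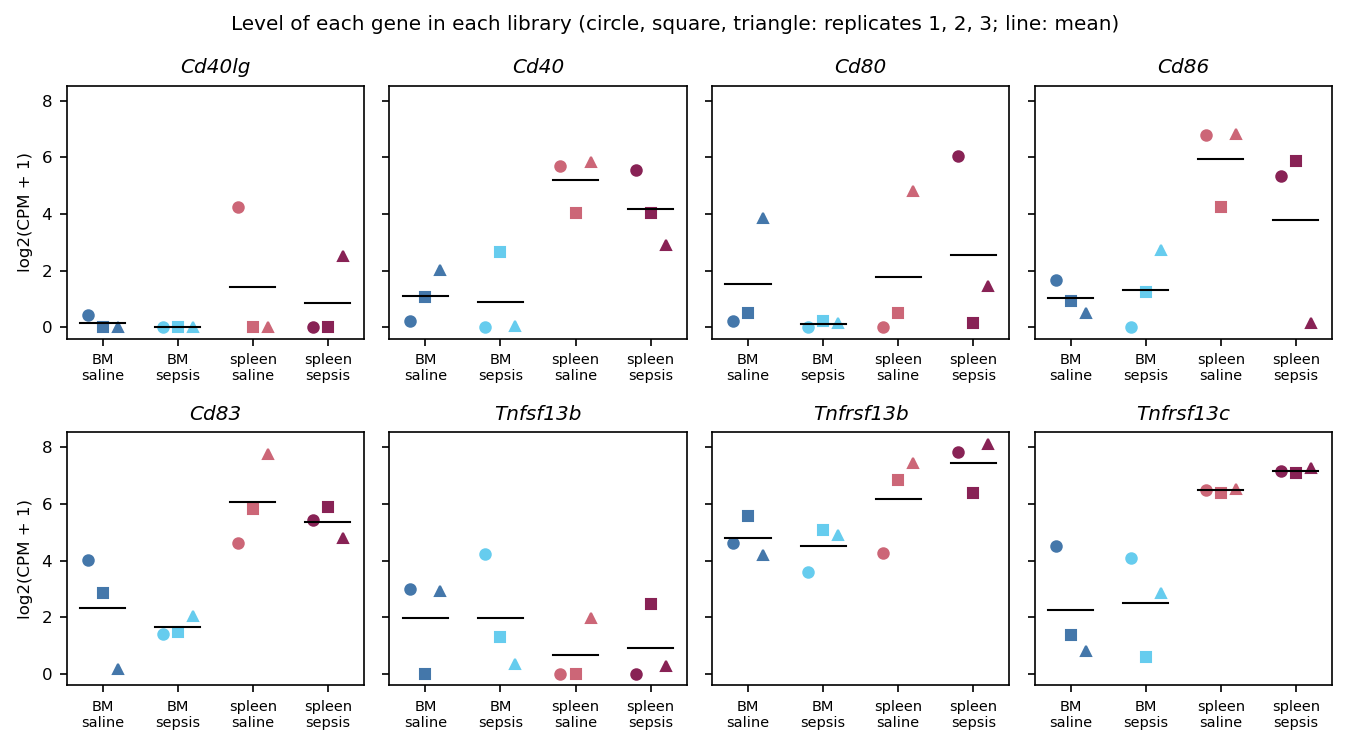
Level of each of the 8 genes in each of the 12 libraries, as log2(CPM + 1) on the y axis, by group on the x axis. Circles, squares and triangles stand for replicates 1, 2 and 3 and the line is the mean of the 3 points. *Cd40*, *Cd83* and *Tnfrsf13c* were higher in every splenic library than in every BM library, whereas *Cd40lg* was at 0 in 9 of the 12 libraries.

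*Cd40lg* (ENSMUSG00000031132; GRCm38 chrX:57212143-57224042, + strand) had reads in 3 of the 12 libraries. They were BM saline replicate 1 with 4 reads (0.341 CPM), spleen saline replicate 1 with 134 reads (18.0 CPM) and spleen sepsis replicate 3 with 49 reads (4.72 CPM). Every BM sepsis library and the other splenic libraries had 0 reads. Thus, *Cd40lg* was detected in 1 of 3 splenic libraries under each treatment and the groups overlapped. In an exact 2-sided permutation test of mean log2(CPM + 1) within treatments (400 arrangements), BM minus spleen was -1.06 (p = 0.5, n = 6 per tissue). Sepsis minus saline, permuted within tissues, was -0.36 (exact permutation p = 0.7, n = 6 per treatment). With reads in only 3 of the 12 libraries, many arrangements were tied. Neither permutation test could therefore reach a p under 0.05, and neither decides whether the groups differed. When the expression filter was omitted, edgeR gave *Cd40lg* a value of -6.42 (SE 2.39) for BM over spleen on the log2 scale, with an adjusted p of 0.159. A rise of *Cd40lg* mRNA after sepsis was not detectable at this depth and number of libraries.

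The libraries with *Cd40lg* reads were compared with T cell markers, since T cells are a known source of CD40L. The 11 T cell markers summed to 6.75 to 111 CPM in BM and 197 to 2658 CPM in spleen. The highest sum, 2658 CPM, was in spleen saline replicate 1, the library with the most *Cd40lg* reads, where *Cd3d* was 827 CPM and *Cd3e* 50.3 CPM. The lowest splenic sum, 197 CPM, was in spleen sepsis replicate 3, the other splenic library with *Cd40lg*, where *Cd3d* was 4.05 CPM and *Cd3e* had 1 read. These 2 genes made up little of that sum. Of the 11 markers, 8 were over the limit of 3 counts in that library and 2 had 0 reads. In contrast, spleen saline replicate 2 had the next highest sum, 971 CPM, and no *Cd40lg* read. The part of T cells in the *Cd40lg* values was not tested.

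*Cd40* (ENSMUSG00000017652; chr2:165055627-165072948, + strand), the receptor for CD40L, was 0.171, 1.09 and 3.10 CPM in the BM saline replicates and 0, 5.23 and 0.0348 CPM in the BM sepsis replicates. In spleen it was 50.7, 15.6 and 56.3 CPM after saline and 46.0, 15.5 and 6.45 CPM after sepsis. The lowest splenic library was above the highest BM library, so the tissues did not overlap. BM over spleen was -4.26 as a log2 fold change (SE 1.19, adjusted p = 0.0449). This call was the least secure of the 5. Without BM saline replicate 1 the adjusted p in edgeR was 0.0697, and without spleen sepsis replicate 1 it was 0.0606.

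Downstream of CD40, TRAF adaptors and NF-kappaB subunits carry the signal. Of 21 genes for CD40 signal transduction, all of which passed the filter, 4 were called lower in BM than in spleen and 0 higher. Over all genes tested, 2.68% were called lower in BM, the share to set beside this list and those below. The list's median log2 fold change was -0.99, and 17 of 21 values were negative. *Traf1*, an adaptor induced by NF-kappaB, was 0.0844 to 1.95 CPM in BM and 5.45 to 74.0 CPM in spleen (log2 fold change -5.48, SE 1.04, adjusted p = 0.00292). For *Rel*, which encodes the c-Rel subunit, it was -3.67 (SE 0.88, adjusted p = 0.0179). The other called genes were *Birc3*, a ubiquitin ligase of the TRAF complex (-2.41, SE 0.53), and *Nfkbia*, the NF-kappaB inhibitor (-2.14, SE 0.38). In each of the 4, every splenic library was above every BM library, which held for 1.87% of all genes tested. The 4 were picked by this same comparison, so the lack of overlap adds no separate support.

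Of the CD28 ligands, *Cd86* was called and *Cd80* was not. *Cd86* (ENSMUSG00000022901; chr16:36603869-36666081, - strand) was 2.13, 0.888 and 0.427 CPM in BM saline and 0, 1.35 and 5.68 CPM in BM sepsis. In spleen it was 111, 18.2 and 112 CPM after saline and 40.0, 58.2 and 0.0963 CPM after sepsis. The exception was spleen sepsis replicate 3, with a single *Cd86* read, which placed this library below all but 1 of the BM libraries. On the log2 scale, BM over spleen was -4.95 (SE 1.16, adjusted p = 0.0151), and it was -5.21 without that library.

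*Cd80* (ENSMUSG00000075122; chr16:38455561-38496335, + strand) was carried by single libraries in both tissues. It was 0.171, 0.395 and 13.6 CPM in BM saline and 0, 0.169 and 0.104 CPM in BM sepsis. Splenic libraries had 0, 0.409 and 27.4 CPM after saline and 65.3, 0.111 and 1.73 CPM after sepsis. The tissues overlapped and the difference was not called (log2 fold change -4.40, SE 1.70, adjusted p = 0.153).

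*Cd83* (ENSMUSG00000015396; chr13:43784775-43803132, + strand) encodes a surface protein of mature DCs and activated B cells that stabilizes MHC class II and CD86. It was 15.1, 6.22 and 0.107 CPM in BM saline and 1.62, 1.77 and 3.10 CPM in BM sepsis. In spleen it was 23.5, 54.9 and 215 CPM after saline and 42.4, 58.2 and 26.6 CPM after sepsis, so that every splenic library was above every BM library. BM over spleen was -4.03 on the log2 scale (SE 0.82, adjusted p = 0.00543).

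Of 13 other genes of the B7 and CD28 family, 9 passed the filter and 2 were called lower in BM. All 9 log2 fold changes were negative (median -4.44). *Btla*, an inhibitory receptor of B and T cells, was 0.129 to 23.4 CPM in BM and 52.9 to 300 CPM in spleen (log2 fold change -4.48, SE 0.81, adjusted p = 0.00187). *Cd28*, the T cell receptor for CD80 and CD86, followed with -5.02 (SE 1.19, adjusted p = 0.0160). *Icosl*, the ligand of ICOS, had a value of -5.45 (SE 1.80, adjusted p = 0.0969) and *Ctla4*, the inhibitory receptor for CD80 and CD86, a value of -4.62 (SE 1.82, adjusted p = 0.161).

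In the BAFF axis, the ligand was not called between tissues and both receptors were, although the ligand was not tested against the receptors. *Tnfsf13b* (ENSMUSG00000031497; chr8:10006467-10039072, + strand) was 6.99, 0 and 6.63 CPM in BM saline and 18.0, 1.43 and 0.279 CPM in BM sepsis. In spleen it was 0, 0 and 2.87 CPM after saline and 0, 4.56 and 0.193 CPM after sepsis. It was thus over 6 CPM in 3 of 6 BM libraries and in no splenic library, but the tissues overlapped. On the log2 scale, BM over spleen was 2.14 (SE 1.91, adjusted p = 0.559), the only positive value among the 7 members.

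*Tnfrsf13b* (ENSMUSG00000010142; chr11:61126755-61149372, + strand) was the member most evenly detected in BM. It was 23.5, 46.9 and 17.1 CPM in BM saline and 11.0, 32.9 and 28.9 CPM in BM sepsis. The splenic values were 18.4, 114 and 174 CPM after saline and 227, 83.8 and 278 CPM after sepsis. Spleen saline replicate 1 lay within the BM range and the other splenic libraries lay above it. For TACI mRNA, BM over spleen was thus -2.41 on the log2 scale (SE 0.55, adjusted p = 0.0124), the smallest of the 5 called members.

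*Tnfrsf13c* (ENSMUSG00000068105; chr15:82221743-82224369, - strand) varied widely in BM and little in spleen. It was 22.1, 1.58 and 0.748 CPM in BM saline and 16.2, 0.506 and 6.16 CPM in BM sepsis. The splenic values were 88.9, 83.5 and 92.4 CPM after saline and 143, 137 and 152 CPM after sepsis, without overlap with BM. The log2 fold change was -3.84 (SE 0.80, adjusted p = 0.00630). *Cd40*, *Cd83* and *Tnfrsf13c* were the 3 members in which all 6 splenic libraries were above all 6 BM libraries, which held for 1.87% of all genes tested.

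**Figure D2:**
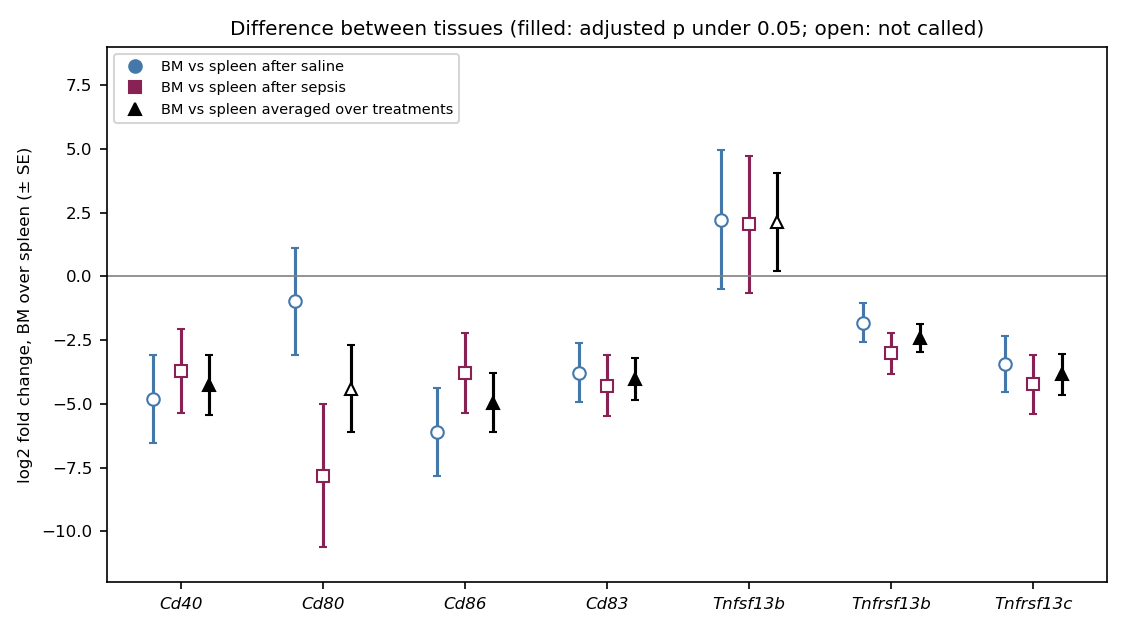
Log2 fold change of BM over spleen (y axis, ± SE from edgeR) for the 7 members that passed the filter (x axis), after saline, after sepsis and averaged over treatments. Filled symbols mark an adjusted p under 0.05, which only averaged values of *Cd40*, *Cd86*, *Cd83*, *Tnfrsf13b* and *Tnfrsf13c* reached; *Tnfsf13b* lies above 0.

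The partners of this axis were examined in a list of 6 genes, 5 of which passed the filter. Only *Tnfrsf17*, which encodes BCMA, the plasma cell receptor for APRIL and BAFF, was called lower in BM, with 0.0647 to 8.71 CPM in BM and 2.31 to 120 CPM in spleen (log2 fold change -5.73, SE 1.03, adjusted p = 0.00176). The log2 fold change was -2.94 (SE 1.18, adjusted p = 0.174) for *Sdc1*, the proteoglycan that binds APRIL. It was 3.09 (SE 1.83, adjusted p = 0.366) for *Tnfsf12*, which encodes TWEAK and shares 48.3% of its exonic length with other genes, so that its reads are uncertain. *Furin*, the protease that releases BAFF and APRIL, had a value of 0.65 (SE 0.83, adjusted p = 0.699), and the median of the list was -0.39. Of 15 TNF family costimulatory genes, 12 passed the filter and 0 were called, with a median of -0.23. The smallest p there was that of *Tnfrsf18* (GITR), at -2.31 on the log2 scale (SE 0.68, adjusted p = 0.0586), and 27.2% of its exonic length overlaps other genes. The 3 that followed were *Tnfsf18* (-5.32, SE 2.36, adjusted p = 0.223), *Tnfsf9* (2.77, SE 1.38, adjusted p = 0.278) and *Tnfrsf9* (-3.85, SE 2.20, adjusted p = 0.351).

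Promoter windows, the 250 bases before the start in RefSeq (GRCm38.p6), are shown for the ligand and both receptors of the BAFF axis, since these members make up its ligand and receptor pairs. Capitals mark the letters of a matched motif, and both strands were searched. For RUNX factors the letters were TGTGGT. Those for PU.1 were GAGGAA and those for GATA factors AGATAA. EBF1, a B cell factor, was searched as CCCNNGGG. No searched motif contains another. The windows, 5' to 3' on the gene's strand, lie at chr8:10006217-10006466 (*Tnfsf13b*, the first of its 2 listed starts), chr11:61126505-61126754 (*Tnfrsf13b*) and chr15:82224381-82224630 (*Tnfrsf13c*).
Tnfsf13b: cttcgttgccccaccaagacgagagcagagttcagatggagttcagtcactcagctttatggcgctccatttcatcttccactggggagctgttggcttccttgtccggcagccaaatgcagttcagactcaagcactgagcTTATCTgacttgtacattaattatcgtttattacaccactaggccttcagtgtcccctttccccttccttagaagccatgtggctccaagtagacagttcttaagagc
Tnfrsf13b: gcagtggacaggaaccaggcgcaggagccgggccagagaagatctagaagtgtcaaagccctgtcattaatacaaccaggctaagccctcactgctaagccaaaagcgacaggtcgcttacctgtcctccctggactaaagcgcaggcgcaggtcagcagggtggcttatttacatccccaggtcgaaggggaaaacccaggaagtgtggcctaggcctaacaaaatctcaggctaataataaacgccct
Tnfrsf13c: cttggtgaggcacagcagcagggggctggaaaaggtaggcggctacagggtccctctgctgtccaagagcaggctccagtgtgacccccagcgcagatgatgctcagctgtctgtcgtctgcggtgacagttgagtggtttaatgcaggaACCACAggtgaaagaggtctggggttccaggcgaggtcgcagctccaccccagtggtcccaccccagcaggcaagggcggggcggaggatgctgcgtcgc
*Tnfsf13b* held the GATA letters on the reverse strand, 108 bases before the start, and 9.99% of 32851 RefSeq windows of this length held them. The window of its other listed start, chr8:10006383-10006632, held none of the 4 motifs. *Tnfrsf13c* held the RUNX letters on the reverse strand, 100 bases before the start, and 14.05% of all windows did. No letters of the 4 motifs were found in the *Tnfrsf13b* window. For comparison, 23.25% of windows held the PU.1 letters and 11.82% the EBF1 letters. These are letter matches only, and binding was not measured. *Cd80* was the other member with an entry, with no match, and *Cd40lg*, *Cd40*, *Cd86* and *Cd83* have no entry in the table used.

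The order of the members was compared per kb of exon. In BM, *Tnfrsf13b* was highest under both treatments, with 10.3 ± 5.52 CPM per kb after saline and 8.55 ± 4.11 after sepsis (SD, n = 3). *Tnfrsf13c* came next, with 3.97 ± 5.90 after saline and 3.72 ± 3.88 CPM per kb after sepsis, and its libraries overlapped with those of *Tnfrsf13b*. In spleen, *Tnfrsf13c* was highest, with 43.1 ± 2.19 CPM per kb after saline and 70.3 ± 3.82 after sepsis. *Cd83* (38.0 ± 39.8) and *Tnfrsf13b* (36.0 ± 27.7) followed after saline, and *Tnfrsf13b* (69.2 ± 35.5) and *Cd83* (16.5 ± 6.14) after sepsis. The libraries of *Tnfrsf13c* and *Tnfrsf13b* overlapped under both treatments. *Cd40lg* was lowest in BM and *Tnfsf13b* in spleen, at 0.140 ± 0.242 CPM per kb after saline and 0.231 ± 0.375 after sepsis. TACI and the BAFF receptor together held 42.1% to 91.2% of the summed CPM per kb of the 8 members in a library, with a median of 72.1%.

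**Figure D3:**
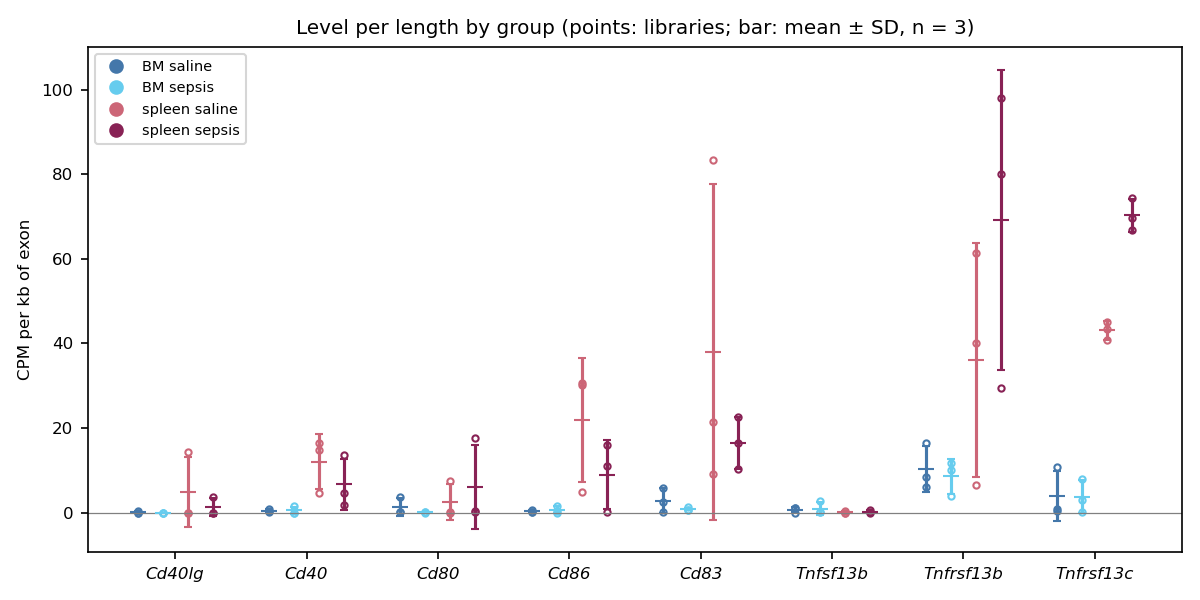
CPM per kb of exon (y axis) of each gene (x axis) in the 4 groups. Open points are libraries and bars the mean ± SD (n = 3). In spleen *Tnfrsf13c* was highest on average, at 43.1 after saline and 70.3 after sepsis; in BM it was *Tnfrsf13b*, at 10.3 and 8.55.

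B cell markers moved with the tissue difference of the receptors. All 12 were called lower in BM, with a median log2 fold change of -5.34, and *Cd79a* was 6.08 to 84.3 CPM in BM and 124 to 2808 CPM in spleen. To place the members beside these cells, reads were expressed per 100 reads of *Cd79b*, a subunit of the B cell receptor, in the same library. *Tnfrsf13b* was 19.7, 78.8, 21.7, 17.9, 143 and 51.8 reads per 100 *Cd79b* reads in the BM libraries (saline replicates before sepsis replicates). In the splenic libraries it was 1.48, 12.8, 8.30, 7.17, 3.53 and 23.9. By this ratio *Tnfrsf13b* had its higher median in BM, 36.7 compared with 7.73, and of the splenic libraries only spleen sepsis replicate 3 reached the BM range. *Tnfrsf13c* was 0.950 to 26.3 reads per 100 *Cd79b* reads in BM (median 6.85) and 4.40 to 13.1 in spleen (median 6.45), with full overlap. *Cd40* had medians of 0.983 and 1.60, *Cd86* of 1.64 and 2.24, and *Cd83* of 6.63 and 2.37 reads in BM and spleen, all overlapping. *Tnfsf13b* was 0 to 29.2 in BM and 0 to 0.192 in spleen. The choice of denominator changed the picture. Per 100 reads of *Ptprc*, the CD45 gene of all leukocytes, *Tnfrsf13b* was 9.25 to 33.6 in BM (median 24.3) and 2.27 to 64.5 in spleen (median 20.5). On that scale *Tnfrsf13c* was 0.518 to 19.8 in BM (median 3.42) and 11.0 to 35.4 in spleen (median 13.9). *Cd40* per 100 *Ptprc* reads had medians of 0.414 in BM and 3.52 in spleen, *Cd86* of 0.967 and 4.69, and *Cd83* of 2.38 and 5.87. *Tnfsf13b* had medians of 3.77 and 0.0224, and the libraries of all 6 genes overlapped between tissues. Both ratios are descriptions without a test. The *Cd79b* ratio has B cell reads in its denominator, and the part of B cells in the member values was not tested.

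**Figure D4:**
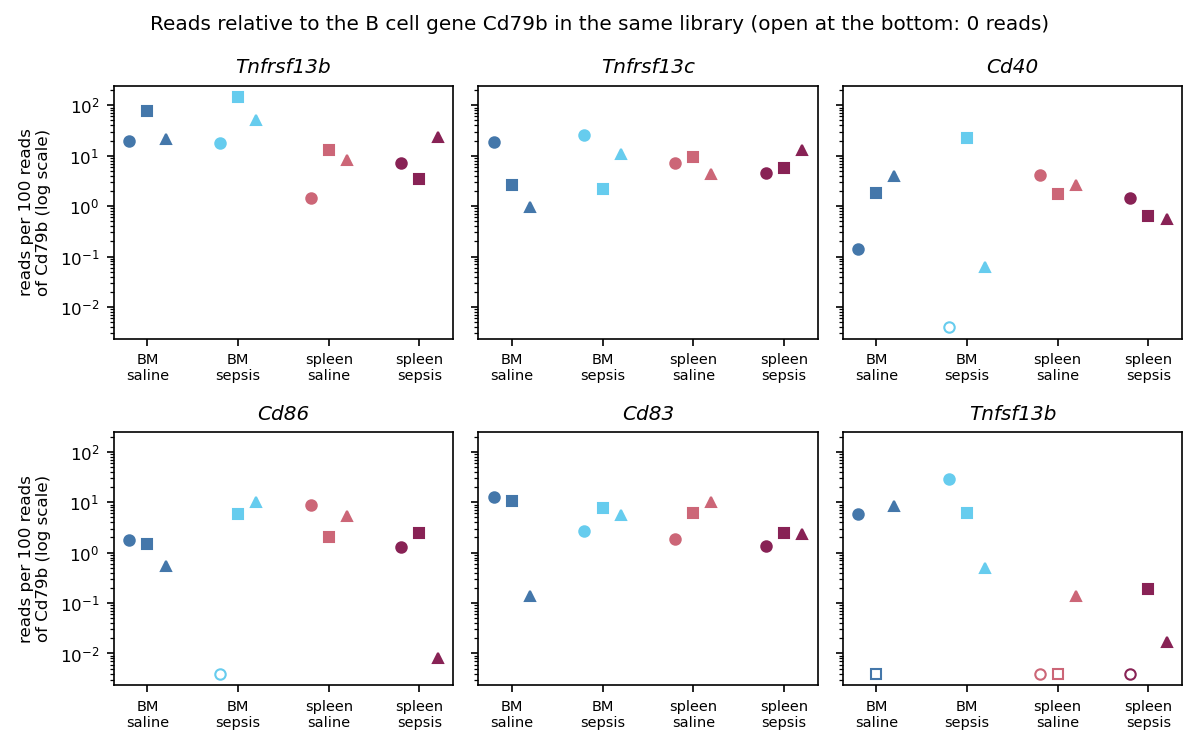
Reads of 6 members per 100 reads of *Cd79b* in the same library (y axis, log scale), by group on the x axis. Symbols stand for replicates 1 to 3, and open symbols at the bottom for libraries with 0 reads. *Tnfrsf13b* had a median of 36.7 in BM and 7.73 in spleen, whereas *Tnfrsf13c* had medians of 6.85 and 6.45.

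Markers of other cell types were also summed. The 8 plasma cell markers summed to 1473 to 4661 CPM in BM and 7703 to 80224 CPM in spleen, and 6 were called lower in BM. *Sdc1* was 118 CPM in spleen sepsis replicate 3, the library with the highest *Tnfrsf13b* and the lowest *Cd86* of the spleen, and 0 to 14.2 CPM in all others, whereas *Jchain* was at its splenic minimum there (6502 CPM). The 9 DC markers summed to 7.08 to 22.3 CPM in BM and 11.5 to 250 CPM in spleen, and the lowest splenic value was again in that library. Of the 8 tested, 1 was called lower in BM, and 7 of the 8 log2 fold changes were negative. *Itgax*, the CD11c gene, was 15.7 to 51.0 CPM in spleen saline and 0.0963 to 0.459 CPM in spleen sepsis. In BM it was at most 4.72 CPM, with 0 reads in 3 libraries. The sum of the 9 DC markers differed less between the splenic groups than *Itgax* did. That sum was 122 to 250 CPM (median 172) in spleen saline and 11.5 to 144 CPM (median 142) in spleen sepsis. *Zbtb46* had 0 reads in 4 BM and 2 splenic libraries. The 10 monocyte and macrophage markers summed to 38.5 to 206 CPM in BM and 37.8 to 311 CPM in spleen, with 0 of 9 tested called. *Csf1r* had 0 reads in 2 splenic libraries, and *Adgre1* in 1 BM and 1 splenic library. The 10 neutrophil markers summed to 95.2 to 276 CPM in BM saline, 2224 to 15950 CPM in BM sepsis, 259 to 18311 CPM in spleen saline and 70.2 to 9196 CPM in spleen sepsis. Averaged over treatments, 2 of these 10 were called higher in BM and 0 lower, while 7 of the 10 log2 fold changes were negative. The highest *S100a8* and *S100a9*, 9606 and 6416 CPM, were in spleen saline replicate 1, where *Cd40lg* was also highest. Of the 11 T cell markers, 6 were called lower in BM. The part of these cell types in the member values was not tested. Without spleen sepsis replicate 3, 5 members were again called between tissues, and all 5 remained called also when both splenic libraries with *Cd40lg* reads were left out.

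Within each treatment the tissue difference pointed the same way, with less support. After saline, 0 of 7 members were called in edgeR, compared with 1.25% of all genes, 0.725% lower in BM. There, 5 members had an unadjusted p under 0.05, as did 12.5% of all genes. DESeq2 called 3 members among 1313 genes and limma-voom 1 among 185. The log2 fold change after saline was -6.10 (SE 1.74, adjusted p = 0.111) for *Cd86*, -4.81 (SE 1.73, adjusted p = 0.267) for *Cd40* and -3.77 (SE 1.15, adjusted p = 0.146) for *Cd83*. It was -3.43 (SE 1.11, adjusted p = 0.183) for *Tnfrsf13c* and -1.81 (SE 0.76, adjusted p = 0.374) for *Tnfrsf13b*. The libraries of *Cd40*, *Cd86*, *Cd83* and *Tnfrsf13c* did not overlap between tissues after saline, whereas those of *Tnfrsf13b* did. The share of all genes without overlap was not counted for 3 against 3 libraries. This lack of overlap is therefore a description and adds no support. The count stayed at 0 without BM saline replicate 2 or 3 or spleen saline replicate 1 or 3, and was 1 or 2 without any other library.

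After sepsis, 0 of 7 members were called in edgeR, compared with 1.78% of all genes, 1.18% lower in BM. Here 6 members had an unadjusted p under 0.05, as did 12.9% of all genes. DESeq2 called 2 members among 1479 genes and limma-voom 3 among 724. The log2 fold change after sepsis was -4.24 (SE 1.15, adjusted p = 0.0756) for *Tnfrsf13c*, -3.02 (SE 0.80, adjusted p = 0.0624) for *Tnfrsf13b* and -4.28 (SE 1.18, adjusted p = 0.0810) for *Cd83*. These were the smallest adjusted values of the members within a treatment, and the libraries of all 3 did not overlap between tissues. As after saline, the share of all genes without overlap was not counted, so this too is only a description. For *Cd40* the value was -3.70 (SE 1.64, adjusted p = 0.373) and for *Cd86* -3.79 (SE 1.55, adjusted p = 0.345). *Cd80* had the largest value, -7.82 (SE 2.81, adjusted p = 0.253), with overlapping libraries. The count rose to 1 or more when any library other than BM sepsis replicate 3 was left out.

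Sepsis was compared with saline to ask whether the members changed 5 days after the challenge. In BM, 0 of 7 members were called, against 0% of all genes, and 718 genes had an unadjusted p under 0.05. DESeq2 called 208 genes and limma-voom 0, none of them members. *Cd80* was the 1 member with an unadjusted p under 0.05 in BM (log2 fold change of sepsis over saline -5.57, SE 2.55, adjusted p = 1). It had 2, 4 and 127 reads in the BM saline replicates and 0, 2 and 3 reads in the BM sepsis replicates. The BM sepsis libraries were below the BM saline libraries only by 0.169 against 0.171 CPM at the nearest, both under the limit of 3 counts, and the log2 fold change was -1.54 without BM saline replicate 3. In the same comparison the 10 neutrophil markers summed to 95.2 to 276 CPM in BM saline and 2224 to 15950 CPM in BM sepsis, without overlap, and their part in the member values was not tested. For the receptors the log2 fold change in BM was -0.27 (SE 0.74) for *Tnfrsf13b* and -0.10 (SE 1.02) for *Tnfrsf13c*, each smaller than its SE.

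In spleen, 0 of 7 members were called after sepsis, against 0.158% of all genes. An unadjusted p under 0.05 in edgeR was reached by 0 members and by 13.1% of all genes. *Tnfrsf13c* was 88.3 ± 4.48 CPM after saline and 144 ± 7.82 CPM after sepsis (SD, n = 3), without overlap. Its log2 fold change of 0.70 (SE 1.01, adjusted p = 0.882) was nonetheless within the error that edgeR gave it from the spread across all 4 groups. How many of all genes showed no overlap between these groups of 3 was not counted. *Tnfrsf13b* had a value of 0.94 (SE 0.74, adjusted p = 0.659), with overlapping libraries. *Cd83* (-1.20, SE 1.04), *Cd86* (-1.29, SE 1.41) and *Cd40* (-0.85, SE 1.48) had negative values that were not called.

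Averaged over tissues, 0 of 7 members were called between sepsis and saline, against 0.0691% of all genes. An unadjusted p under 0.05 in edgeR was reached by 0 members and by 10.2% of all genes. The lowest p was that of *Cd83* (log2 fold change -1.46, SE 0.75, adjusted p = 0.509). In the tissue by sepsis interaction 0 of 7 were called, against 0% of all genes, with 1557 genes at an unadjusted p under 0.05. DESeq2 called 495 genes and limma-voom 0 in the interaction, and 0 members in either. *Cd80* had the smallest p of the members (-6.84, SE 3.25, adjusted p = 0.646). With SEs of 1.05 to 3.59 on the log2 scale, this test could miss even large differences between the tissues in the response to sepsis.

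Finally, the genes whose log2 CPM most resembled each member over the 12 libraries were listed as a description. These coefficients include the difference between the tissues, and each library shares its own depth and cell mixture. For *Tnfrsf13c* they were *Ppfia4* (r = 0.967), *Slamf7* (0.961) and *Mcoln2* (0.941), with r = 0.265, 0.121 and 0.980 over the 6 splenic libraries. For *Tnfrsf13b* they were *Lipc* (0.954), *Lrrc18* (0.921) and the plasma cell gene *Derl3* (0.914), with 0.958, 0.948 and 0.885 in spleen. *Cd86* was closest to *Mpeg1* (0.945), the perforin-2 gene of phagocytes, and *Tnfrsf17* (0.934), and kept r = 0.970 and 0.975 within spleen. *Cd83* was closest to *Bend5* (0.938), *Naaa* (0.935) and *Fnbp1* (0.930), with 0.804, 0.671 and 0.602 in spleen. *Cd40* was closest to *mt-Ta* (0.930), *Klf2* (0.926) and *Gramd3* (0.922), with 0.793, 0.184 and 0.380 in spleen. *Tnfsf13b* was closest to *Ddx59* (0.901), *Lix1l* (0.894) and *Arhgap29* (0.857). *Cd80*, which rested on single libraries, was closest to *Olfr901* (0.943), *Olfr251* (0.898) and *Krt83* (0.868). Among the members themselves, *Cd83* and *Tnfrsf13c* were the most alike pair over all 12 libraries (r = 0.843), but r was -0.31 over the 6 splenic libraries, whereas *Cd40* and *Cd86* kept 0.706 and 0.843.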

How the data were processed

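RNA was measured in 12 libraries of 300 sorted MKs, 3 for each tissue and treatment. SMART-Seq HT reagents were used for lysis and full-length cDNA, and Nextera XT for the libraries. The authors deposited counts of reads per Ensembl gene, as whole numbers without normalization, and all 12 columns were assigned to samples by their labels. The submitters' processing notes name STAR 2.7.2b, R 3.6.1, DESeq2 1.26 and GRCm38, whereas the annotation is not given in the sources used here. The same holds for how reads were assigned to genes. Full-length cDNA kits without molecular identifiers amplify molecules unevenly, so counting limits are too narrow. Positions, exon lengths and overlaps are from GENCODE on GRCm38. No member shares exonic bases with another gene.

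The analysis used edgeR 4.0.16 under R 4.3.3, with filterByExpr (minimum count 10, 20263 genes kept), TMM scaling and 1 mean per group over all 12 libraries (residual degrees of freedom 8). P values of the quasi-likelihood test were adjusted by Benjamini-Hochberg over all genes tested and genes were called at an adjusted p under 0.05. The SE is the size of the log2 fold change divided by the square root of F. The common dispersion was 2.05, or 143% as a biological coefficient of variation, and this spread rather than depth set the precision. The code was tested on simulated data. *Cd40lg*, below the filter, was tested by exact permutation of log2(CPM + 1). Alternatives were other scalings, filters, DESeq2 1.42.0, limma-voom (limma 3.58.1), fits of 6 libraries, a replicate block, leaving out segments of immunoglobulins and T cell receptors, thinning to equal depth and each library left out. Leaving out both splenic libraries with *Cd40lg* reads was added after seeing the data. Python 3.11.15 with pandas 2.3.3 and matplotlib 3.10.9 drew the figures.

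The members and gene lists were chosen with earlier results of these data known. All 8 members were named, with at most 4 genes per pathway list (smallest p between tissues, averaged over treatments), the leading 2 genes of each marker list and the 3 genes closest to each tested member by Pearson r. *Csf1r*, *Adgre1*, *Jchain*, *Itgax* and *Zbtb46* belong to the marker lists. Immunoglobulin and T cell receptor segments and unnamed gene models were left out of the closest genes, and 1 gene close to *Cd86* is not reported here.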

Additional observations from a re-analysis of the deposited data

How the results depend on the processing

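The average tissue difference kept its direction for 6 members under all 22 alternatives and for *Cd80* under the 21 that tested it (it did not pass the stricter filter), and 4 to 6 members were called. Calls of *Cd86*, *Cd83* and *Tnfrsf13b* held under all 22 alternatives, and *Tnfrsf13c* held in 21, with no adjusted p from DESeq2 in the other. *Cd40* lost its call with library size alone (adjusted p = 0.0848) and without BM saline replicate 1 (0.0697) or spleen sepsis replicate 1 (0.0606). Scaling moved the median log2 fold change of all genes between tissues from -0.13 (TMM) to 0.39 (library size alone) and -0.32 (RLE). With limma-voom, which also changes the model and weights, it was 0.21. Calls over all genes in that comparison were 962 in the main analysis, 2615 with DESeq2, 1517 with limma-voom and 1527 with library size alone. The number of libraries, 3 per group, limits all of these results. The cause of the changes below was not tested.

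After saline, the count of members called between tissues was 0 (of 253 genes called) and became 3 without a filter (of 529), 3 with DESeq2 (of 1313), 1 with limma-voom (of 185), 1 with 6 libraries (of 172), and 0 to 2 with each library left out. After sepsis it was 0 (of 361) and became 1 with RLE scaling (of 378), 4 without a filter (of 595), 2 with DESeq2 (of 1479), 3 with limma-voom (of 724), 1 with 6 libraries (of 256), 1 after thinning (of 386), and 0 to 3 with each library left out.

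Deviations of same-numbered libraries from their group means showed little correlation (18 correlations, -0.0566 to 0.0447). The labels do not state whether same-numbered libraries came from the same mouse. With a biological coefficient of variation of 143%, these correlations cannot decide it. With the replicate number as a block, 1 member was called after saline (of 288 genes), 2 after sepsis (of 401) and 5 on average (of 955). Under the block, the log2 fold change of sepsis over saline in BM became -0.31 for *Cd40* and 0.23 for *Tnfrsf13c*, and averaged over tissues it became 0.80 for *Cd80*.

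Values that were not called changed sign as follows, as log2 fold changes. With limma-voom, BM over spleen after saline was 0.42 for *Cd80*. Sepsis over saline in BM was -2.44 for *Cd40*, -0.60 for *Cd86*, 0.13 for *Cd83* and 0.87 for *Tnfrsf13c*, and the interaction was -1.74 for *Cd40*, 0.73 for *Cd83* and 0.19 for *Tnfrsf13c*. With each library left out, BM over spleen ranged from -4.98 to 4.46 for *Cd80* after saline and from -0.86 to 6.17 for *Tnfsf13b* after sepsis. Sepsis over saline in BM ranged from -5.59 to 1.47 for *Cd40*, -0.78 to 1.84 for *Cd86*, -2.39 to 1.11 for *Tnfsf13b*, -0.53 to 0.28 for *Tnfrsf13b* and -1.24 to 2.71 for *Tnfrsf13c*. In spleen it ranged from -3.36 to 6.71 for *Cd80*, -1.62 to 0.16 for *Cd83* and -3.32 to 7.38 for *Tnfsf13b*. Averaged over tissues it ranged from -3.20 to 0.32 for *Cd40*, -4.46 to 0.57 for *Cd80*, -1.03 to 0.28 for *Cd86*, -1.37 to 3.97 for *Tnfsf13b* and -0.26 to 1.72 for *Tnfrsf13c*. The interaction ranged from -4.77 to 2.29 for *Cd40*, -1.85 to 0.65 for *Cd83*, -6.83 to 3.89 for *Tnfsf13b* and -1.96 to 1.98 for *Tnfrsf13c*.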
